A study of Gallus gallus with 6 samples.

Results

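The nuclear genes of the mitochondrial respiratory chain and ATP synthase were followed in chicken primary myoblasts that overexpressed ANKRD9. The set was taken from the table by gene symbol: every symbol starting with NDUF, UQCR, ATP5 or COX4 to COX8, together with SDHA, SDHB, SDHC and SDHD. It held 82 of the 24433 genes in the table. By complex, 34 belonged to complex I, 4 to complex II, 8 to complex III, 10 to complex IV and 18 to complex V, and 8 were NDUFAF genes, whose products assemble complex I without staying in it. NDUFA4 was counted with complex IV, where its product resides. All ATP5 symbols were counted with complex V by symbol alone, ATP5SL among them, without a check that each encodes a subunit. CYC1, the cytochrome c1 subunit of complex III, is not analysed here. A family of symbols does not cover every subunit: cytochrome c oxidase subunit 5B, for example, was listed only under a locus identifier and described as such, and is given separately.

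The oxidative phosphorylation system sits in the inner mitochondrial membrane. Complexes I and II take electrons from NADH and succinate and pass them to ubiquinone, complex III hands them on to cytochrome c, and complex IV transfers them to oxygen. Complexes I, III and IV move protons out of the matrix, and complex V, the ATP synthase, lets them back and makes ATP. Complex II is built wholly from nuclear genes, while the other complexes also contain subunits encoded by mitochondrial DNA. In skeletal muscle the system supplies the ATP of oxidative fibres, and its content is known to rise when myoblasts differentiate.

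The cells were primary myoblasts from leg muscle. In 3 libraries they overexpressed ANKRD9, an ankyrin repeat protein, and in 3 they carried the control, pcDNA3.1, an expression vector without an insert. The study as titled concerned the metabolism of inosine monophosphate (IMP), so the respiratory chain lies beside its stated question. The labels give no age, sex or time after transfection, and do not say whether repeats came from separate cultures, so p-values measure the spread between these libraries, which may be technical. The myoblasts are a bulk sample, in which fewer cells of a type and less RNA per cell cannot be told apart.

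Levels are the authors' FPKM, fragments scaled by gene length and by a total for each library. That total was not the sum of the reads recovered below. It was 1.02% to 1.45% above this sum with ANKRD9 and -1.08% to -0.161% from it in the controls. Median-of-ratios factors of the deposited values were equal in all libraries. Libraries held between 16158627 and 26310089 reads, recovered from the deposited values. Where its mean over all libraries reached 1 FPKM, a gene was tested with limma on log2(FPKM + 1), a scale on which log2 differences are given throughout as ANKRD9 minus control, and a gene is said to rise or fall where the Benjamini-Hochberg adjusted p over all 11685 genes tested was under 0.05. ANKRD9 itself stood at 90.5, 104 and 101 FPKM in its libraries and at 9.46, 8.16 and 10.1 FPKM in the controls (log2 difference 3.29 ± 0.08 SE, limma adjusted p = 5.44e-06; exact two-sided permutation p = 0.1, the smallest that 3 against 3 libraries allow). Of the myoblast markers, MYF5 and DES rose, MYOD1 and PAX7 fell, and 2 of the 6 tested were not called, while every library expressed all 6.

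In these cells most respiratory chain transcripts did not pass the test, and those that did were mainly lower with ANKRD9. Of the 82 genes, 80 were tested. Of these 12 fell and 1 rose. The called share was 16.2% of the members, against 36.0% of all genes tested. By direction, the 12 that fell were 15% of the members tested, beside 19.8% of all genes. The 1 that rose, of 80 tested, stands beside 16.3% of all genes. The falls were led by COX5A of complex IV, 38.7% below its control mean, and by SDHD of complex II, NDUFB6 of complex I and UQCRFS1 of complex III. The median log2 difference of the members was -0.05, beside -0.0063 over all genes tested. A negative difference was found in 54 members and a positive one in 26, beside 5965 and 5720 of all genes tested. In 16 members, or 20% of those tested, the libraries of one group all lay beyond those of the other, 13 below and 3 above, against 50.6% of all genes. These were abundant transcripts of short gene models: the median level was 91.2 FPKM against 11.7 over all genes tested, and the median gene model was 862 bases against 3016. Among genes at 30 FPKM or more, 13 of 67 members were called (19.4%), beside 44.4% of all genes at that level.

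**Figure D1:**
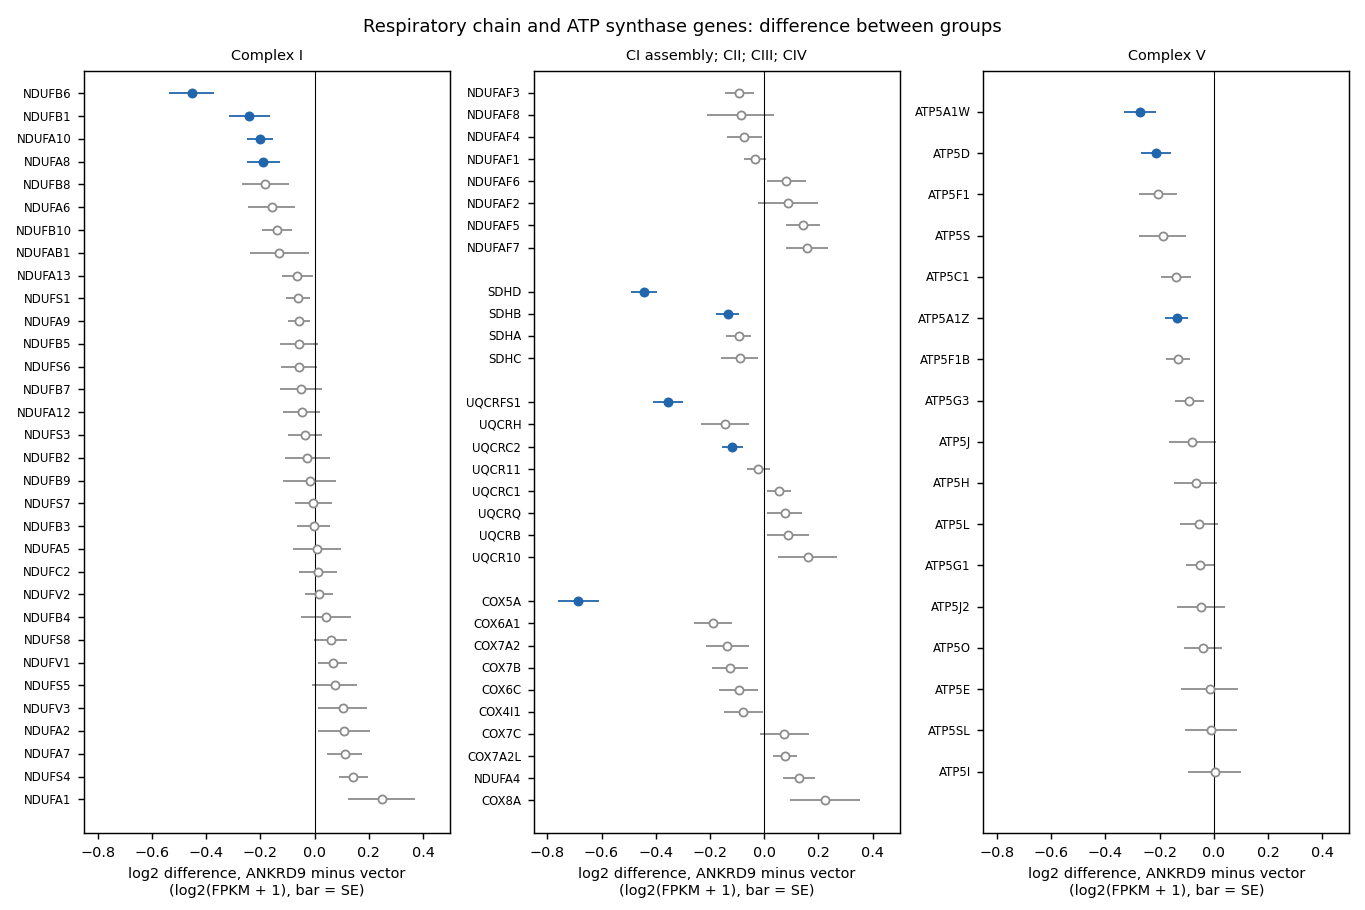
Log2 difference (ANKRD9 minus vector, on log2(FPKM + 1); bar = SE) of the tested genes that fell or were not called, grouped by complex and sorted within each group. The 12 filled blue points passed the limma test and lie left of 0, and COX5A is farthest from 0 at -0.69.

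Complex IV, cytochrome c oxidase, contained the largest single difference of the set. COX5A, a nuclear subunit that joins the mitochondrially encoded catalytic core early in assembly, was at 34.5, 33.0 and 36.0 FPKM with ANKRD9 and at 51.2, 54.8 and 62.7 FPKM with the vector. The lowest control library lay well above the highest ANKRD9 library. The group means were 34.5 ± 1.52 and 56.2 ± 5.91 FPKM (SD, n = 3), a fall of 38.7%, with a log2 difference of -0.69 ± 0.07 (SE, 95% interval -0.86 to -0.51, limma adjusted p = 0.000691). The gene lies on chromosome 10 (GRCg6a, 2847964 to 2852187, plus strand), and between 344 and 846 reads per library were behind its value. From start to end the gene spans 4224 bases, beside a gene model of 639, and shares 1461 of them with FAM219B on the same strand. Overlaps here and below are of such spans, so whether exons or reads are shared was not checked. The level of FAM219B was 8.63 ± 0.682 and 8.43 ± 0.744 FPKM (log2 difference 0.03, limma adjusted p = 0.781).

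None of the other 9 complex IV members was called. COX4I1, the regulatory subunit beside COX5A in the early assembly module, was at 264, 259 and 238 FPKM with ANKRD9 and 243, 271 and 290.0 FPKM in the controls, and the groups overlapped (log2 difference -0.08 ± 0.07, limma adjusted p = 0.435). Subunit 5B, listed as LOC107049545, stood at 197 ± 1.55 and 211 ± 23.1 FPKM (log2 difference -0.09, limma adjusted p = 0.373). Set against each of these partners, COX5A was lower in every ANKRD9 library: its ratio to COX4I1 was 0.131, 0.127 and 0.151 with ANKRD9 and 0.210, 0.202 and 0.216 with the vector, and its ratio to subunit 5B was 0.175, 0.166 and 0.184 against 0.277, 0.250 and 0.274. These ratios, and those of complexes II and III below, were chosen after the values were seen and were not tested. COX6C, the most abundant member of the complex, had 381, 388 and 374 FPKM with ANKRD9 and 369, 451 and 404 FPKM in the controls, a wide control range that enclosed all 3 ANKRD9 libraries. COX7A2L, a factor that joins complexes III and IV into supercomplexes, was at 38.3 ± 1.39 and 36.2 ± 1.2 FPKM (log2 difference 0.08, limma adjusted p = 0.211). COX6A1 came nearest to the threshold of the uncalled members, at 291 ± 17 and 332 ± 28 FPKM (log2 difference -0.19, limma adjusted p = 0.0726). The second isoforms COX4I2, COX6A2, COX7A1 and NDUFA4L2 were not matched by symbol and are not analysed here, so no isoform pair was compared.

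Complex II, succinate dehydrogenase, was the one complex whose summed level did not overlap between groups. It came to 190.4, 188 and 193 FPKM with ANKRD9 and 215, 225 and 224 FPKM with the vector. In the other complexes only the first control library, pcDNA3.1 replicate 1, overlapped with ANKRD9, as given below. That library was low mainly for short gene models, though it was also the lowest control for 74.3% of the members over 1000 bases. Over all genes of that length it was so for 34.3%. All 4 models of complex II were over 1000 bases, but those of SDHD and SDHB, at 1008 and 1025, only just. The median of the 4 was 1703 bases, against 708.5 to 827 for the tested members of complexes I, III, IV and V. The part of length in this contrast was not tested. SDHD, one of the pair of membrane anchors that hold haem and the ubiquinone site, was at 54.8, 54.8 and 58.1 FPKM with ANKRD9 and 72.1, 79.6 and 77.6 FPKM in the controls. The groups were clearly separate, at means of 55.9 ± 1.87 and 76.4 ± 3.88 FPKM (log2 difference -0.44 ± 0.05, limma adjusted p = 0.000716). The gene is on chromosome 24 (6175392 to 6178295, minus strand). Its span of 2904 bases overlaps IL18 on the opposite strand over 379 bases, and IL18 rose (5.05 to 6.57 FPKM, log2 difference 0.32, limma adjusted p = 0.00518). Because the counting is not stated to use strand, reads of such partners cannot be told apart, and here the pair went in opposite directions.

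The iron-sulphur subunit SDHB fell less, from 50.2, 48.2 and 48.4 FPKM in the controls to 46.1, 44.4 and 42.9 FPKM with ANKRD9 (log2 difference -0.14 ± 0.04, limma adjusted p = 0.0376). Its groups lay close together without overlapping. SDHA, the flavoprotein that oxidises succinate, was at 64.0, 62.2 and 67.4 FPKM with ANKRD9 and 67.1, 71.8 and 67.9 FPKM with the vector (log2 difference -0.09 ± 0.05, limma adjusted p = 0.147). SDHC, the other anchor, was at 25.4 ± 0.954 and 27.2 ± 2.55 FPKM (log2 difference -0.09 ± 0.07, limma adjusted p = 0.325). The groups overlapped for both. The ratio of SDHD to SDHA was 0.857, 0.882 and 0.861 with ANKRD9 and 1.07, 1.11 and 1.14 with the vector.

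Complex III, the cytochrome bc complex, had 8 members, of which 2 fell (25%, beside 19.8% of all genes). UQCRFS1, the Rieske iron-sulphur protein that passes electrons from ubiquinol towards cytochrome c, was at 87.0, 86.8 and 88.8 FPKM with ANKRD9 and 103, 119 and 115 FPKM with the vector. The ANKRD9 libraries lay close to each other and all below the controls. The log2 difference was -0.35 ± 0.06 (95% interval -0.48 to -0.22, limma adjusted p = 0.00301), and the gene lies on chromosome 11 (8114724 to 8118077, minus strand) with no overlapping partner. UQCRC2, a structural core protein, was at 121, 120.1 and 121 FPKM against 126, 136 and 131 FPKM (log2 difference -0.12 ± 0.04, limma adjusted p = 0.0472), a small difference between tight groups. UQCRC1, its partner in the core, was not called and had the opposite sign (log2 difference 0.06, limma adjusted p = 0.361). The ratio of UQCRFS1 to UQCRC1 was 0.612, 0.579 and 0.634 with ANKRD9 and 0.776, 0.843 and 0.812 with the vector. The most abundant member, UQCRQ, was at 188 ± 8.76 and 179 ± 14.1 FPKM, and UQCRB, the least abundant, at 39.1 ± 2.08 and 36.8 ± 3.82 FPKM. Both are small subunits named for binding ubiquinone, and neither was called (limma adjusted p = 0.392 and 0.41). With 4 members on either side of 0, the median log2 difference of the complex was 0.02.

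**Figure D2:**
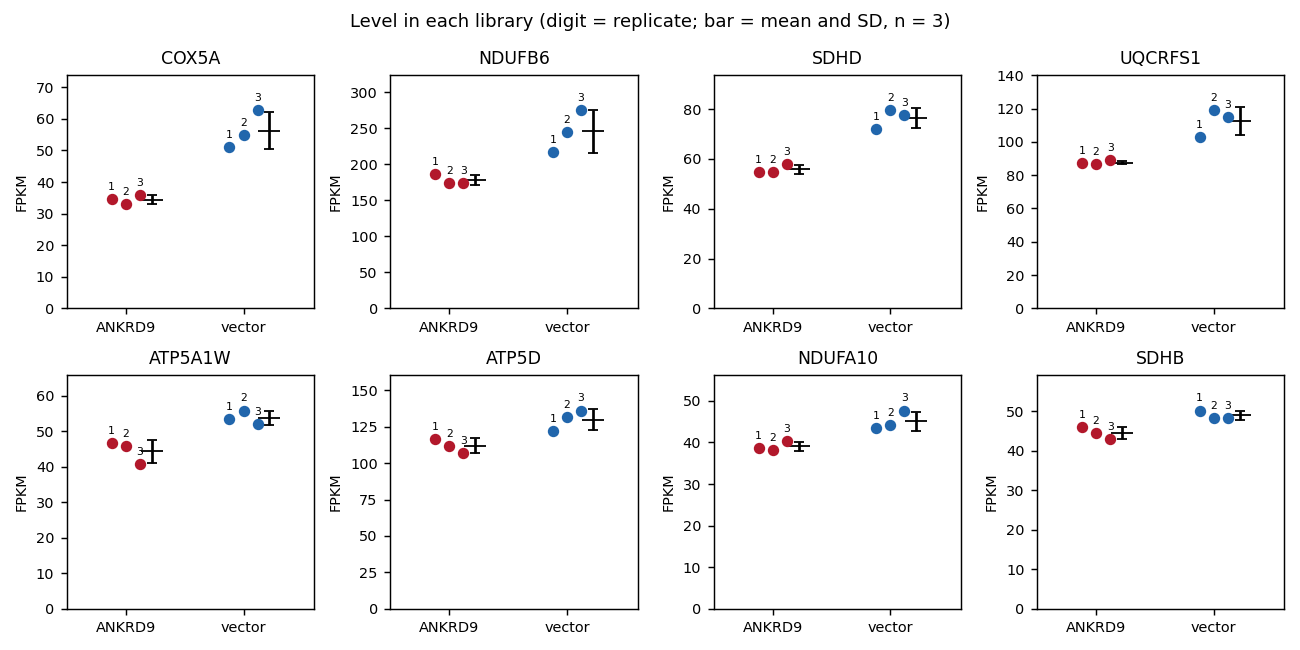
FPKM of 8 called genes in each library (y axis from 0), with points numbered by replicate and the bar giving the mean and SD of 3 libraries. COX5A, SDHD, NDUFB6 and UQCRFS1 (top row) are lower in every ANKRD9 library (red) than in any vector library (blue), and so is SDHB (last panel), at 42.9 to 46.1 against 48.2 to 50.2 FPKM.

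Complex I, NADH dehydrogenase, had 33 tested members, and its median log2 difference was -0.03. Of these members 4 fell (12.1%, beside 19.8% of all genes) and 1 rose. The called share was 15.2%, below the 36.0% of all genes. All 4 that fell were accessory subunits, which surround the catalytic core and are needed for assembly and stability. NDUFB6, of the membrane arm, had 186, 174 and 175 FPKM with ANKRD9 and 216, 245 and 275 FPKM in the controls. Its groups did not overlap, though the control libraries were widely spread (178 ± 6.73 against 246 ± 29.3 FPKM, log2 difference -0.45 ± 0.08, limma adjusted p = 0.00541). The gene lies on chromosome 14 (13797513 to 13799635, plus strand) and overlaps no other gene of the table. NDUFA10, a subunit with a nucleoside kinase fold, was at 38.7, 38.1 and 40.4 FPKM against 43.4, 44.1 and 47.7 FPKM (log2 difference -0.20 ± 0.05, limma adjusted p = 0.0146), and again every ANKRD9 library was below every control. NDUFA8, which faces the intermembrane space, was at 91.6, 97.9 and 88.3 FPKM against 98.0, 111 and 108 FPKM, its groups nearly touching (log2 difference -0.19 ± 0.06, limma adjusted p = 0.0429). NDUFB1, a small membrane arm subunit, was at 112, 102 and 103 FPKM against 111, 134 and 130.4 FPKM (log2 difference -0.24 ± 0.07, limma adjusted p = 0.0403). It was the one called member whose groups overlapped: its first control library was at the level of the ANKRD9 libraries.

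In the catalytic core of complex I, 6 nuclear subunits were followed and none of these was called. Their log2 differences lay between -0.06 for NDUFS1 and 0.07 for NDUFV1, with limma adjusted p between 0.328 and 0.967. NDUFV1, which binds NADH, was at 97.1 ± 3.03 and 92.7 ± 6.00 FPKM, with a 95% interval of the log2 difference of -0.06 to 0.19. NDUFS1, which carries several of the iron-sulphur clusters, was at 39.7 ± 0.925 and 41.5 ± 2.02 FPKM, with an interval of -0.17 to 0.05. NDUFV2 (87.9 ± 3.11 and 87.0 ± 4.99 FPKM), NDUFS3 (58.1 ± 3.03 and 59.6 ± 4.44 FPKM), NDUFS7 (73.8 ± 2.13 and 74.2 ± 6.86 FPKM) and NDUFS8 (88.1 ± 3.36 and 84.7 ± 6.52 FPKM) overlapped between groups. Whether core and accessory subunits differ was not tested. NDUFS4, an accessory subunit, was higher in every ANKRD9 library (27.1, 27.7 and 26.3 against 22.8, 26 and 24.4 FPKM) and missed the threshold (log2 difference 0.14, limma adjusted p = 0.0738).

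At the low end of complex I, NDUFB2 was at 6.11 ± 0.196 and 6.27 ± 0.794 FPKM. Its span overlaps another gene on the opposite strand over 9330 of its 10749 bases. Of the 28 tested members of the complex that were not called, the largest absolute log2 difference was 0.25, that of NDUFA1, at 105, 115 and 99.5 FPKM with ANKRD9 and 72.3, 102 and 97.2 FPKM with the vector (limma adjusted p = 0.162). Its first control library was far below the other 5. NDUFA11 was listed at 0 in all 6 libraries, and so was ATP5G2 of complex V. The span of NDUFA11 lies wholly within that of KLHL33 on the same strand, and 1914 of the 1960 bases spanned by ATP5G2 lie within ATF7. What the 0 says about either transcript thus cannot be told. None of the 8 assembly factors with NDUFAF symbols was called. They were less abundant, from NDUFAF4 at 3.74 to NDUFAF1 at 46.0 FPKM over all libraries, with a median log2 difference of 0.02 and a smallest limma adjusted p of 0.112, that of NDUFAF5 (8.54 ± 0.263 and 7.66 ± 0.597 FPKM).

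Complex V, the ATP synthase, had 17 tested members by ATP5 symbol, of which 3 fell (17.6%, beside 19.8% of all genes) and none rose. In 16 of the 17 the difference was negative, beside 5965 of all 11685 genes tested, and the median log2 difference was -0.08. Some of these signs were not stable: ATP5SL kept its sign in 10 and ATP5E in 11 of the 17 alternative settings. In 5 members (29.4%, beside 26.9% of all genes) every ANKRD9 library was below every control. The catalytic head alternates alpha and beta subunits. In birds the alpha subunit is encoded by a pair of sex-linked copies, ATP5A1Z on chromosome Z and ATP5A1W on the female-specific chromosome W. ATP5A1W was at 46.6, 45.8 and 40.7 FPKM with ANKRD9 and 53.4, 55.8 and 52.0 FPKM with the vector (log2 difference -0.27 ± 0.06, limma adjusted p = 0.010). ATP5A1Z was at 220.2, 227 and 218 FPKM against 235, 254 and 243 FPKM (log2 difference -0.14 ± 0.04, limma adjusted p = 0.0428). Neither copy overlapped between groups. With quantile scaling ATP5A1Z was at -0.036 (limma adjusted p = 0.351), and it was called in 6 of the 17 alternative settings. The W copy made up 17.5%, 16.8% and 15.7% of their summed FPKM with ANKRD9 and 18.5%, 18.0% and 17.6% with the vector. How reads that match both copies were assigned is not given in the sources used here, so their separate levels are uncertain.

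ATP5F1B, the catalytic beta subunit and the most abundant member of the whole set, was at 506, 495 and 495 FPKM with ANKRD9 and 523, 559.9 and 559 FPKM with the vector, from 13934 to 23268 reads per library. All ANKRD9 libraries were below the controls, but the gene did not pass (log2 difference -0.13 ± 0.04, 95% interval -0.24 to -0.03, limma adjusted p = 0.0505). With quantile scaling its log2 difference was -0.0074 (limma adjusted p = 0.850), and over all alternative settings it ran from -0.18 to that value. In the central stalk, which turns inside the head, ATP5D (delta) fell from 122, 132 and 136 FPKM in the controls to 117, 112 and 107 FPKM (log2 difference -0.21 ± 0.05, limma adjusted p = 0.0199), and ATP5C1 (gamma) was at 123 ± 2.96 and 136 ± 9.37 FPKM (log2 difference -0.14, limma adjusted p = 0.0848). ATP5F1, subunit b of the peripheral stalk, was at 228, 229 and 215 FPKM against 235, 260.1 and 283 FPKM, separate between groups, and did not pass (log2 difference -0.21 ± 0.07, limma adjusted p = 0.0503). The least abundant member, ATP5S, known in mammals as coupling factor B, was at 8.86 ± 0.612 and 10.3 ± 1.24 FPKM and was not called (limma adjusted p = 0.129). ATPIF1, the inhibitor that blocks ATP hydrolysis by the enzyme, lies outside the symbol rule and was at 162, 156 and 161 FPKM with ANKRD9 and 159, 231 and 181 FPKM in the controls (log2 difference -0.23, limma adjusted p = 0.165). Its control libraries differed more from each other than the groups did.

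Summed over its members, each complex other than complex II overlapped between groups, through the first control library alone. The other controls were above every ANKRD9 library in each complex. Complex I summed to 2813, 2719 and 2620.0 FPKM with ANKRD9 and 2565, 2975 and 2959 FPKM with the vector. Complex V summed to 2983, 2961 and 2825 FPKM against 2879, 3328 and 3206 FPKM. In both, the first control library was the lowest control; it lay below the ANKRD9 libraries in complex I and among them in complex V. In complexes III and IV it was also below them, at 898 and 1642 FPKM against 926 to 987 and 1644 to 1780 FPKM with ANKRD9. The other controls were at 1040 and 991 FPKM in complex III and at 1915 and 1883 FPKM in complex IV.

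**Figure D3:**
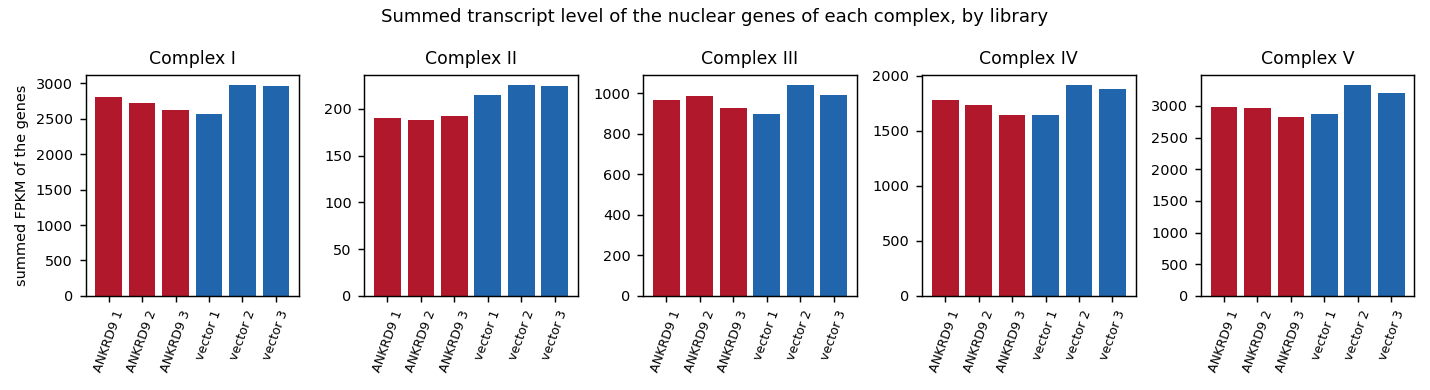
Summed FPKM of the genes of each complex in each library (bars from 0; red, ANKRD9; blue, vector). Complex II is lower in all 3 ANKRD9 libraries (188 to 193) than in the controls (215 to 225), and in complexes I, III, IV and V the bar of vector 1 is shorter than those of vector 2 and 3.

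That library, pcDNA3.1 replicate 1, bears on most members. It was the lowest of the 3 controls for 70 of the 80 tested genes (87.5%), against 37.1% of all genes tested, and the lowest of all 6 libraries for 39. The pattern moved with gene length. Of gene models of at most 1000 bases, it was the lowest control for 97.8% of the 45 members and 59.8% of all genes; above 1000 bases, for 74.3% of the 35 members and 34.3% of all genes. The median deviation of members from their own mean was -0.10 (log2) in it, against 0.10 and 0.06 in the other two controls and 0.01, -0.02 and -0.07 in the ANKRD9 libraries. By the same split of lengths, 4 of the 45 shorter members were called (8.89%, against 26% of all genes of that length) and 9 of the 35 longer members (25.7%, against 37.3%). After a trend with gene length was removed, 20 of the 80 members were called (25%, beside 40.9% of all genes), 3 of them higher. Their median log2 difference was then -0.05. This fit was added after seeing the data, and beyond it the part of gene length in these results was not tested.

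**Figure D4:**
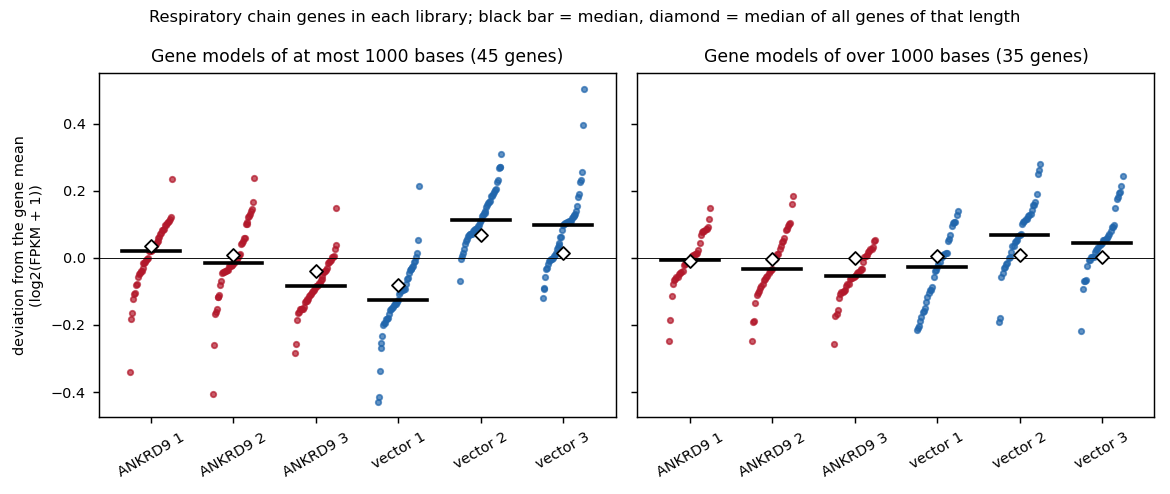
Deviation of each tested gene from its mean over 6 libraries (log2(FPKM + 1)), by library, for gene models of at most 1000 bases (left, 45 genes) and longer ones (right, 35 genes); points are sorted by value, the bar is their median and the diamond the median of all genes of that length. Vector 1 has the lowest median of the shorter genes at -0.13, and vector 2 and 3 the highest at 0.11 and 0.10.

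Without that library, 22 members fell and none rose, 27.5% of those tested, and the median log2 difference was -0.11. It was the lowest control for most members, so leaving it out moves their differences down by construction. The counts of this setting are therefore no independent support for a fall. Over all genes 33.5% were called, a share that counts both directions, with 2146 lower and 1764 higher. It is thus not a like measure for the members' calls, which were all lower. Of the calls over all genes in this setting 45.1% were higher, beside 0% of the members' calls. The 2146 genes lower in this setting compare with 2310 in the main comparison, which were 19.8% of all genes tested. Their exact share in this setting was not computed. The counts per complex that follow are read beside these values. Complex V then had 9 of 17 members called lower, among them ATP5F1B (-0.17, limma adjusted p = 0.0140), ATP5C1 (-0.19, limma adjusted p = 0.0131) and ATP5F1 (-0.27, limma adjusted p = 0.00952). Complex I had 7 and complex IV 3 called lower, whereas SDHB was no longer called (limma adjusted p = 0.0804). The leading genes were farther from 0: COX5A was at -0.75, NDUFB6 at -0.54, SDHD at -0.48 and UQCRFS1 at -0.41. Leaving out pcDNA3.1 replicate 2 instead gave 9 called members, 3 of them higher, and a median of -0.015. Without pcDNA3.1 replicate 3, 7 members were called, 0 of them higher, with a median of -0.028. Over all 17 alternative settings, COX5A, SDHD, NDUFB6, UQCRFS1 and ATP5A1W were called in each, and all 13 called members kept their direction in each. Of the 17, median-of-ratios scaling repeated the main comparison, since its factors were equal, so it adds a call to every tally without testing it. NDUFA10 lost its call only without ANKRD9 replicate 2 (limma adjusted p = 0.0608). Of the others, ATP5D was called in 12 of the 17, NDUFA8 in 9, NDUFB1 in 8, UQCRC2 and ATP5A1Z in 6 each and SDHB in 5. A further 19 members, not called in the main comparison, were called in at least one alternative.

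Genes that build, feed or regulate the chain were described from 4 lists. Of 51 assembly factors, 42 were tested, 6 fell and 1 rose (16.7% called), with a median log2 difference of 0.01. The called shares of all 4 lists are read against the 36.0% of all genes tested. HIGD2A, which helps assemble complex IV and supercomplexes, fell from 58.3, 66.6 and 71.0 FPKM to 47.0, 50.6 and 52.9 FPKM (log2 difference -0.37 ± 0.08, limma adjusted p = 0.00899). SURF1, another assembly factor of complex IV, was the one that rose (17.5 to 20.8 FPKM, log2 difference 0.24, limma adjusted p = 0.00872), and UQCC1, for complex III, fell (-0.20, limma adjusted p = 0.0126). Of the electron carriers and carriers of ADP and phosphate, 21 of 24 were tested, 5 fell and none rose (23.8% called, median -0.05). They included SLC25A6, an ADP/ATP carrier (392, 405 and 410 FPKM in the controls, 333, 343 and 337 FPKM with ANKRD9; -0.25, limma adjusted p = 0.00277), SLC25A3, the phosphate carrier (-0.24, limma adjusted p = 0.00264), and PDSS2, which makes the side chain of ubiquinone (-0.51, limma adjusted p = 0.00523). The groups did not overlap in 9 of the 21 genes (42.9%, beside 50.6% of all genes).

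Of 16 tested genes of the citric acid cycle and pyruvate dehydrogenase, 5 fell and 1 rose (37.5% called, close to the share of all genes; median -0.03). IDH3A, the catalytic subunit of NAD-dependent isocitrate dehydrogenase, fell from 33.2 to 25.6 FPKM (-0.36, limma adjusted p = 0.000922), and SUCLG2, a succinyl-CoA ligase subunit, from 18.4 to 14.3 FPKM (-0.34, limma adjusted p = 0.00338). Of 14 regulators of mitochondrial biogenesis, 10 were tested, 1 fell and 1 rose (20% called, median -0.03). GABPA, the DNA-binding subunit of NRF-2, which binds promoters of many respiratory genes in mammals, was at 18.9, 19.3 and 21.3 FPKM with ANKRD9 and 26.5, 26.9 and 25.2 FPKM with the vector (-0.39 ± 0.06, limma adjusted p = 0.00207). Its span overlaps that of ATP5J by 137 bases on the opposite strand. POLRMT, the mitochondrial RNA polymerase, rose (11.9 to 13.6 FPKM, 0.19, limma adjusted p = 0.0353). TFAM, which packages mitochondrial DNA, was at 44.2 and 46.9 FPKM and was not called (limma adjusted p = 0.217), and the coactivator PPARGC1A was below the test's minimum in both groups (0.209 and 0.152 FPKM).

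Other measures moved with the groups. Reads on the listed mitochondrial RNAs took 0.438% to 0.549% of reads with ANKRD9 and 0.316% to 0.374% with the vector. Of 8 tested fibroblast and matrix markers 6 fell and 1 rose (87.5% called, beside 36.0% of all genes). That list summed to 1726 to 1865 FPKM with ANKRD9 and 2135 to 2187 FPKM with the vector. Of 7 tested leukocyte markers 4 rose and none fell (57.1% called), with sums of 82.4 to 90.2 against 59.3 to 68.9 FPKM. The largest part of these sums was NCF1, which rose, at a mean of 41.7 FPKM with ANKRD9 and 24.3 with the vector. CD74, the next most abundant, was at 19.2 and 22.5 FPKM and was not called. CD79B was at or near 0, as was TCF21 of the fibroblast list. Of 2 tested endothelial markers 1 rose and 1 fell. Myoblast markers summed to 929 to 1034 and 913 to 964 FPKM, and the 3 listed erythroid markers to between 0.0990 and 0.383 FPKM, with none tested. Their part in the respiratory chain results was not tested.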

How the data were processed

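RNA from 6 libraries was analysed from 1 deposited table of FPKM per gene, which the authors made. The submitters' processing notes name CASAVA and the build GRCg6a (galGal6), while the read aligner, the counter, the use of strand and the treatment of reads that map more than once were not given in the sources used here. Per the labels' protocols, polyadenylated RNA entered an NEBNext Ultra RNA kit, whose name does not include strand marking. All 6 columns were matched to samples by name, and 0 were left over. FPKM times length was a whole multiple of one step for 100% of values (tolerance 0.01), which gave the reads behind each value; these are not independent molecules. The total implied by the deposited FPKM was 1.02% to 1.45% above the recovered reads in the ANKRD9 libraries and -1.08% to -0.161% from them in the controls. Median-of-ratios factors of the deposited FPKM were equal in all libraries (1.00), so the alternative with this scaling repeated the main comparison.

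A filter on the mean (1 FPKM or more) kept 11685 of 24433 genes. On log2(FPKM + 1), limma 3.58.1 under R 4.3.3 fitted the 2 groups, eBayes was run with its trend on the mean, and the Benjamini-Hochberg adjustment covered all genes kept. This scale understates the change of low genes. The procedure was tested on simulated counts with a fixed spread between replicates. These held no shift with gene length in any library, so they do not test the procedure under such a shift. Tables and figures used Python 3.11.15, pandas 2.3.3, numpy 2.4.6, scipy 1.17.1 and matplotlib 3.10.9. The members and the other lists were chosen with earlier results of these data known. Named genes were the catalytic subunits, up to 4 called members per direction and complex, the most and least abundant member of each complex, COX7A2L, ATPIF1 and up to 3 called genes of each other list; further genes (among them NDUFS4, NDUFA1, COX6A1, ATP5F1, UQCRC1, NDUFAF5 and subunit 5B) were named after their values were seen. Of 82 members, 25 overlap another gene of the table by their spans from start to end, and so do 7 of the 13 called. Chromosome names came from 19717 gene identifiers (80.7%) shared with NCBI's GRCg7b table, of which no coordinates were used. Alternatives covered the pseudocount, the filter, the scaling, limma voom on recovered reads, an untrended eBayes fit, a replicate block and leaving out each library. Leaving out both libraries numbered 1 and removing a trend with gene length were added after seeing the data. Some genes that the naming rule takes are not reported on their own; they stay in the counts. No sequences were used here.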

Additional observations from a re-analysis of the deposited data

How the results depend on the processing

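Higher and lower calls across all genes stayed within 1.5 times of 1900 and 2310 in each alternative except without ANKRD9 replicate 2, where 1255 were higher; leaving out 1 library gave 1255 to 1764 higher and 1577 to 2146 lower. The members' calls (12 lower, 1 higher) became 7 lower and 2 higher with scaling to the sum of recovered reads, 7 and 0 without the eBayes trend, 20 and 0 without both libraries numbered 1, and 6 to 22 lower and 0 to 3 higher when 1 library was left out. The number higher was 0 without a filter and 3 with quantile scaling, with voom and after removing the length trend. The share of higher calls among member calls, 7.69%, was thus 22.2% with scaling to recovered reads and 20% with quantile scaling and voom; over all genes it went from 45.1% to 52.8% with scaling to recovered reads. The highest count came without pcDNA3.1 replicate 1 (22 lower), and 6 were lower without ANKRD9 replicate 2, ANKRD9 replicate 3 or pcDNA3.1 replicate 2.

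Complex I (5 called) had 2 without a filter, 2 without the trend and 9 without both libraries numbered 1 (leaving out 1 library, 2 to 7). Complex II (2) had 1 with quantile scaling, scaling to recovered reads, voom, no trend, without both libraries numbered 1 and with the length trend removed (1 to 2). Complex III (2) had 1 without a filter, with scaling to recovered reads, voom, no trend and without both libraries numbered 1 (1 to 2). Complex IV (1) had 3 with quantile scaling, 2 with voom, 3 without both libraries numbered 1 and 3 after the length trend was removed (1 to 3). Complex V (3) had 5 with a minimum of 5 FPKM, 5 with voom, 6 without both libraries numbered 1 and 7 after the length trend was removed (1 to 9). Of the other lists, regulators (2) had 1 without a filter (1 to 2), and assembly factors kept 5 to 8 calls, carriers 5 to 6 and the citric acid cycle 4 to 6 when 1 library was left out. The members' median (-0.05) was -0.13 without both libraries numbered 1, -0.028 with scaling to recovered reads and -0.11 to -0.015 when 1 library was left out. ANKRD9 stayed between 3.21 and 3.35 when 1 library was left out. The cause of these shifts was not tested.

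A replicate block was fitted, although the sample titles number the repeats without stating that they pair. Correlations of same-numbered deviations were -0.196, 0.0336 and -0.0797, and those of unlike numbers ran from -0.105 to 0.16. With 3 libraries per group these values cannot settle whether the numbers pair the samples. With the replicate block 6 members were called lower and 0 higher, which by complex was 2 in complex I, 1 in II, 1 in III, 1 in IV and 1 in V, and 4 assembly factors and 1 regulator were called.

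Uncalled members near 0 changed sign. When 1 library was left out, NDUFB2 ran from -0.11 to 0.045, NDUFS3 from -0.091 to 0.015, NDUFS7 from -0.076 to 0.056, NDUFS8 from -0.0014 to 0.11 and NDUFV2 from -0.026 to 0.056. NDUFB2 was at 0.024 after the length trend was removed. NDUFS7 (main value -0.0042) was at 0.021 with quantile scaling, 0.021 with scaling to recovered reads, 0.024 with voom and 0.0061 after the length trend was removed. Without both libraries numbered 1, UQCRB was at -0.034, UQCRQ at -0.0053, NDUFS8 at -0.032, NDUFV1 at -0.0063 and NDUFV2 at -0.052. Promoter motifs and isoform pairs were not run. Reads per member and library ran from 80 to 23268. The fewest were those of NDUFAF8 (80 to 122), at a mean of 11.2 FPKM on a model of 418 bases, so depth limits this gene most. NDUFAF4, the lowest in FPKM, had 348 to 617 reads.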
